A study of Drosophila melanogaster with 2 samples.

Results

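The spindle assembly checkpoint genes mad2, Mad1, BubR1, Bub1, Bub3 and Mps1 were examined for binding of the transcription factor E2f2 in Drosophila melanogaster embryos. The 6 genes were taken by name, 6 of 13968 annotated genes that code for proteins, and each was matched to the annotation by its symbol. The measurements were lists of peaks from chromatin immunoprecipitation with sequencing (ChIP-seq) of whole embryos aged 0 to 24 h, in 2 biological replicates of 1 group. The flies were transgenic, of the strain E2F2-GFP, and made E2f2 fused to eGFP, which was precipitated with an antibody against GFP. Both replicates carried the fusion; the labels do not state what drives it, and no input or untagged sample was analysed here. A whole-embryo sample mixes all cell types and 0 to 24 h of development, so no peak can be assigned to a tissue or a stage. The read depth is unknown.

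The spindle assembly checkpoint holds back anaphase until every chromosome is attached to spindle microtubules. At an unattached kinetochore the kinase Mps1 acts at the head of the pathway. Bub3 brings Bub1 and BubR1 to the kinetochore, where Spc105R is a platform protein, and Mad1 holds Mad2 there. Mad2, BubR1 and Bub3 join Cdc20, called fzy in flies, in a complex that keeps the anaphase-promoting complex from marking securin and cyclin B for destruction. E2f2 is the fly E2F protein known mainly as a repressor, acting with Dp, the RB family proteins and the dREAM complex, and E2F proteins are known for binding at promoters of cell cycle genes.

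All 6 genes had an E2f2 summit no more than 500 bp from an annotated start of transcription (TSS) in the conservative thresholded list, and each also had one in the thresholded list of each replicate. The bound DNA is shown for the 4 genes whose sequence is printed here, because these windows carry the motif result below. Each sequence is the 201 bp centred on the summit in the conservative list, read 5′ to 3′ along the strand of the gene, from the RefSeq copy of Release 6, whose coordinates are those of dm6. They lie at chr3L:5813109-5813309 for mad2 (minus strand), chr3R:17671186-17671386 for Mps1 (plus strand), chr3R:29675501-29675701 for Bub3 (minus strand) and chr2L:5278501-5278701 for Bub1 (plus strand). Capitals mark every match to a motif that was searched: TATCGATA (the DRE) in mad2, TTTGAA (the CHR) followed by GGTCACAC (Ohler motif 1) in Mps1, TATAAA (the TATA box) on the opposite strand in Bub3, and TTTGAA with TATAAA on the opposite strand in Bub1.
mad2: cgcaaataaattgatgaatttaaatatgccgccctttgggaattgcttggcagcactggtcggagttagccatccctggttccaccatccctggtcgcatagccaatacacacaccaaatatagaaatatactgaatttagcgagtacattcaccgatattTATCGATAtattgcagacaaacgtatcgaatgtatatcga
Mps1: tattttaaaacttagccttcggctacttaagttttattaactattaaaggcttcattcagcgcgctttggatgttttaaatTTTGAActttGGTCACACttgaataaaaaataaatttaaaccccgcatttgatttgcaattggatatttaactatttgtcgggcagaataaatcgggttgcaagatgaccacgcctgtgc
Bub3: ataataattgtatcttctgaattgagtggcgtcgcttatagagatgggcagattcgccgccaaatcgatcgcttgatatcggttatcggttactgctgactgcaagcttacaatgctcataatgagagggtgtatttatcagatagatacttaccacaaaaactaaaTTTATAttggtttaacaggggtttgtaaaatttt
Bub1: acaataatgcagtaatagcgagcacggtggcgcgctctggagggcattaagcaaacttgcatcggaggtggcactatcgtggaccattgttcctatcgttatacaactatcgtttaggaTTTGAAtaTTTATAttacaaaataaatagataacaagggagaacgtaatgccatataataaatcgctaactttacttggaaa

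A gene is called bound here when a summit lies within 500 bp of any of its TSSs. In the conservative list, which the authors made from both replicates, 6 of 6 checkpoint genes were bound, against 40.7% of all protein-coding genes. The thresholded list of replicate 1 also gave 6 of 6, against 33.5% of all genes, and that of replicate 2 gave 6 of 6, against 42.1%. Of all genes, 32.2% were bound in both replicates, and all 6 checkpoint genes were among them. Since the genes were listed with earlier results of these data known, these counts are descriptions and were not tested. The larger thresholded list (44.1% of all genes), interval midpoints in place of summits (40.5%), gene 5′ ends alone (38.8%) and a window of 1000 bp (44.3%) each gave 6 of 6 as well.

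The 6 promoters differed widely in signal. The signal value, computed by the authors' peak caller for each peak, ran from 121 at Mad1 to 3247 at mad2 in the conservative list, a 26.8-fold range. Their median was 412, beside 252 for all 5681 bound genes and 174 for all 7312 entries of the list. Of the 6, 4 were above the median entry, as were 66.0% of all bound genes, and 2, mad2 and BubR1, were among the 1000 strongest entries, which bind 7.82% of all genes. Signal values of different lists stand on different scales: for the median gene bound in all 3 lists the value in replicate 2 was 1.80 times that in replicate 1 (quartiles 1.56 and 2.13, 4442 genes), and the conservative value was 1.00 times the sum of both. Levels were therefore compared by rank within each list.

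**Figure D1:**
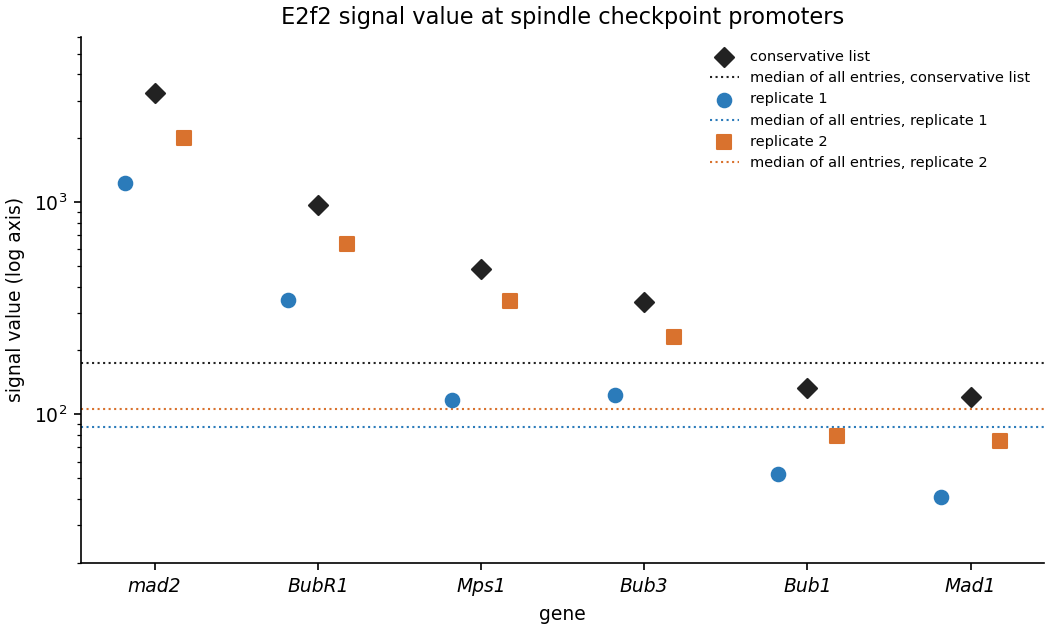
Signal value (log axis) of each checkpoint gene's matching peak in the conservative list (diamonds), replicate 1 (circles) and replicate 2 (squares), with dotted lines at the median of all entries of each list. The values of mad2 (3247, 1233 and 2013) are the highest of the 6 in every list. Each value of Bub1 and Mad1 lies below the median of its own list.

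Mad2, the protein that changes shape at the kinetochore and binds Cdc20, had the promoter of highest signal. The signal value at mad2 was 1233 in replicate 1 and 2013 in replicate 2. These values ranked 8 of 5002 and 6 of 8250, and the value of 3247 in the conservative list ranked 6 of 7312. The peak lay on chromosome 3L from 5812828 to 5813507, with an intergenic summit 116 bp upstream of the only annotated TSS. The summits of the replicates lay 11 and 1 bp from it. No other protein-coding gene had a TSS within 500 bp of this summit. The entry directly above it in the list, with a value of 3310, lay at CG9630, and the entry directly below, with 3106, at r-l.

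BubR1, which carries the inhibitory signal with Mad2 in the mitotic checkpoint complex, came next in each list. Its signal value was 345 in replicate 1 (rank 717 of 5002), 632 in replicate 2 (rank 695 of 8250) and 973 in the conservative list (rank 702 of 7312). Its ranks thus stayed within 22 places of each other over lists of different lengths. The peak lay on chromosome 2R from 5974128 to 5974662, and its summit was in the 5′ UTR of BubR1, 4 bp downstream of the TSS. The conservative list held a further entry over nearly the same interval, with a summit 201 bp upstream of the TSS and a value of 54.8. The thresholded lists of the replicates and the larger list held only the summit near the TSS.

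Mps1, the kinase at the head of the pathway, had the largest ratio of signal values between the replicates among the 6 genes. Its signal value was 117 in replicate 1 (rank 1980) and 343 in replicate 2 (rank 1419), a ratio of 2.92, and 94.1% of the 4442 genes had a lower ratio. By rank, Bub1 and Mad1 moved by more places than Mps1, but over lists of different lengths. By percentile within each list the shift was largest at Mps1, at 22.4 points, against 19.3 at Mad1 and 11.2 at Bub1. A percentile also depends on the length of its list, which was 5002 and 8250 entries. By ratio of signal values, 54.3% of the 4442 genes were lower than Mad1 and 20.8% lower than Bub1. In the other 5 genes the ratio ran from 1.52 at Bub1 to 1.87 at Bub3. The conservative peak lay on chromosome 3R from 17671056 to 17671565, with a value of 484 and its summit in the 5′ UTR, 15 bp downstream of the TSS. In replicate 2 the interval was 520 bp wide and held 2 summits, 23 and 228 bp downstream of the TSS, with values of 343 and 50.5. In replicate 1 it was 223 bp wide with 1 summit between those positions, 90 bp downstream. The conservative list had both summits too, the second 214 bp downstream with a value of 149. The ratio thus compares a single summit with the stronger of a pair, and whether the calling of summits bears on it was not tested.

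Bub3, the WD-repeat protein that carries Bub1 and BubR1 to the kinetochore, had a signal value of 123 in replicate 1 (rank 1895), 231 in replicate 2 (rank 2040) and 339 in the conservative list (rank 2059). In replicate 1 this was above the value of Mps1, and in replicate 2 below it, so the order of these neighbours was not the same in both replicates. The other 4 genes kept their places in both: mad2 and BubR1 above this pair, then Bub1 and Mad1 below it. The Bub3 peak lay on chromosome 3R from 29675409 to 29675706, with an intergenic summit 180 bp upstream of the Bub3 TSS. That summit was 50 bp from the TSS of the oppositely oriented gene Cap-D2, which encodes a condensin subunit, and the gap between both TSSs was 230 bp.

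Bub1 and Mad1 had the lowest values. Bub1, the kinase that marks the inner centromere and helps to recruit Mad1, had a signal value of 52.2 in replicate 1 (rank 3744), 79.2 in replicate 2 (rank 5248) and 133 in the conservative list (rank 4548). Mad1, the kinetochore anchor of Mad2, had 40.9 in replicate 1 (rank 4290), 75.2 in replicate 2 (rank 5486) and 121 in the conservative list (rank 4837). All of these were below the median entry of their list, which was 87.6 in replicate 1, 106 in replicate 2 and 174 in the conservative list. Mad1 and its protein partner Mad2 were thus at opposite ends of the group. The −log10 of the global IDR, where IDR is the irreproducible discovery rate of a peak's rank, was 2.45 and 3.15 for Mad1 in the replicates and 3.27 and 3.18 for Bub1. The lowest thresholded entry had 2.00 in each replicate. The values for mad2 and BubR1 were 5.0, the highest that the files hold.

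**Figure D2:**
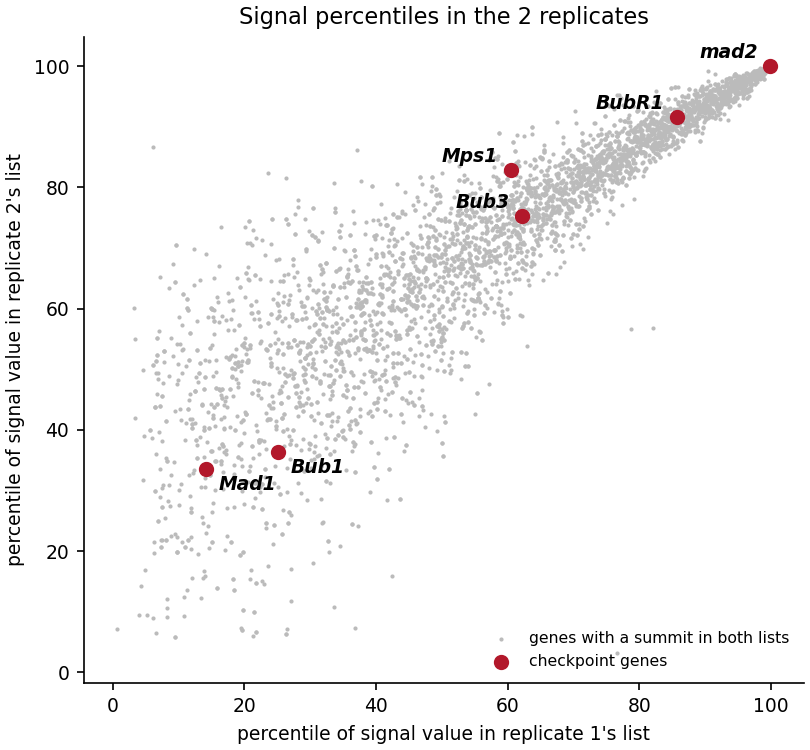
Percentile of the signal value within replicate 1's list (x axis) and within replicate 2's list (y axis) for all 4497 genes bound in both (grey) and the 6 checkpoint genes (red). The checkpoint genes run from Mad1 (14.3 and 33.5) to mad2 (99.9 and 99.9), and Mps1 (60.4 and 82.8) stands toward the upper edge of the grey points at its place on the x axis.

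At 3 of the 6 genes the summit stood closer to another gene. The summit at Bub1 was 264 bp upstream of its nearest TSS and 53 bp from the TSS of Nin, and the summit at Mad1 was 229 bp upstream and 62 bp from a TSS of Drep2. With Bub3 and Cap-D2 this made 3 oppositely oriented gene pairs, with gaps of 317, 291 and 230 bp between the TSSs. Mps1 also had such a neighbour, CG7523, but its TSS was 391 bp from the Mps1 summit. Among all bound genes the strongest summit was nearer to another gene in 26.0% (1477 of 5681). When each peak counted for its nearest TSS alone, 3 of 6 checkpoint genes (mad2, BubR1 and Mps1) stayed bound, against 31.6% of all genes. With a window of 250 bp 5 of 6 were bound, without Bub1, against 35.8%. The median distance from summit to TSS was 148 bp for the 6 genes and 90 bp for all bound genes. Peaks do not say which gene of a pair is regulated.

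Bub1 had a further candidate at its other start. The gene has 2 annotated TSSs, and the second, from which its transcripts RA and RB start, lies 188 bp downstream of the first. A ranked entry that did not pass the threshold had its summit 48 bp upstream of that second TSS in both ranked lists of the series, with a signal value of 84.6. Its −log10 global IDR was 0.843 in the ranked list that holds every conservative entry and 0.191 in the other. In replicate 1 such an entry lay 26 bp upstream, with a value of 36.6 and a −log10 global IDR of 1.90. In replicate 2 it lay 40 bp upstream, with 29.6 and 0.847. The thresholded Bub1 peak, on chromosome 2L from 5278469 to 5278691, did not reach either Bub1 TSS. The Mad1 peak lay on chromosome 2R from 9291539 to 9292048 and extended 26 bp past the Mad1 TSS into the gene.

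**Figure D3:**
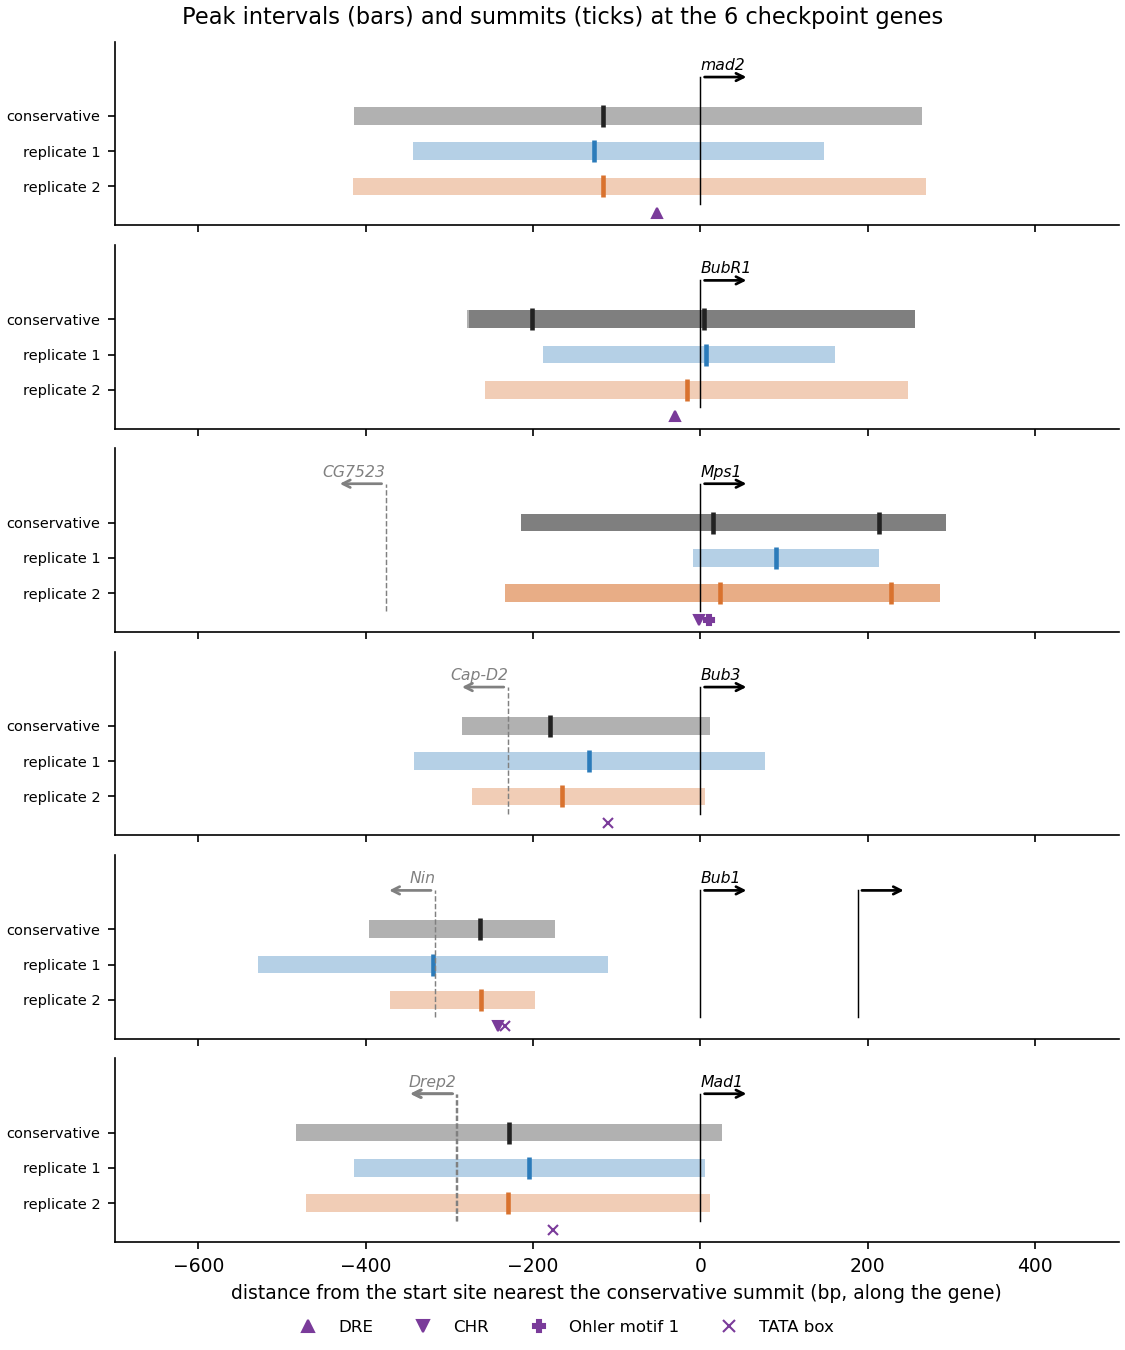
Peak intervals (bars) and summits (ticks) in the conservative list and in each replicate, against distance in bp from the TSS nearest the conservative summit, drawn along each gene. Black arrows are TSSs of the checkpoint gene, grey arrows those of neighbours, and purple symbols motif matches within 100 bp of the summit; the Bub3, Bub1 and Mad1 summits lie toward Cap-D2, Nin and Drep2, 50, 53 and 62 bp from their TSSs.

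Each conservative peak overlapped a thresholded peak of both replicates. The summits of replicate 2 lay 1 to 20 bp from the conservative summits, and those of replicate 1 lay 3 to 75 bp away. Such overlap was common: of 5681 genes bound in the conservative list, 4442 were also bound in the lists of both replicates. With a reciprocal overlap of 50% required, 5 of 6 matched in both replicates. The share of all entries that meet this stricter rule was not computed. The exception was Mps1, whose narrow replicate 1 peak had a reciprocal overlap of 43.7%.

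None of the 6 windows held any of the E2F consensus forms that were searched. The forms TTTGGCGC, TTTCCCGC, TTTCGCGC and TTTGCCGC were looked for on either strand up to 100 bp from the summit, and 0 of 6 checkpoint genes had one, beside 9.38% of the 4146 conservative entries at promoters (389 entries). Within 200 bp it was also 0 of 6, beside 13.3%. The shorter cores, which are the same forms without their first T, gave 0 of 6 within 100 bp, beside 18.1%. Over the whole peak interval 1 of 6 had such a core, beside 27.7%: in mad2, TTGCCGC lay 143 bp from the summit and 27 bp downstream of the TSS, on the opposite strand. Most promoter entries also lacked a match, and the lack of one says only that these letters are not in the window.

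Other promoter motifs were spread over the 6 genes. The DRE, TATCGATA, which is bound by the factor DREF, occurred in 2 of 6 windows, beside 15.7% of promoter entries. It lay 52 bp upstream of the TSS in mad2 and 30 bp upstream in BubR1. Within 200 bp of the summit the DRE occurred in 3 of 6, with Bub3 added, beside 19.2%. The sequence of mad2 above shows it in capitals. The CHR, searched as TTTGAA and TTCGAA, is known in human cells as the site of the MuvB subunit LIN54. It occurred in Bub1 and Mps1, beside 51.2% of promoter entries. In Mps1 it was followed by Ohler motif 1, GGTCACAC, bound by the factor M1BP, which was centred 10 bp downstream of the TSS and occurred in 12.5% of promoter entries. The TATA box letters TATAAA occurred in Mad1, Bub1 and Bub3, beside 29.5%, at 110 to 234 bp upstream of the TSS and on the opposite strand. CAGCTG, the Ohler E-box, occurred in 0 of 6, beside 17.1%. No motif occurred in all 6 windows, and none of these shares was tested.

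Genes that act beside the checkpoint were nearly all bound too. Of 19 such genes 18 were bound in the conservative list, against 40.7% of all genes, and 18 in the list of each replicate, against 33.5% and 42.1%. By the strongest summit of each gene, their median signal value was 903, with values from 251 at Zw10 to 2264 at CycB3. By that measure all 18 were above the median entry of the list, beside 66.0% of all bound genes and 4 of the 6 checkpoint genes. The strongest Zw10 summit lay 222 bp upstream of its TSS and 72 bp from the TSS of another gene. A second summit, 12 bp upstream of the Zw10 TSS, had a value of 123, below the median entry of 174 and below Bub1. Of the kinetochore genes 7 of 7 were bound: the platform gene Spc105R, the RZZ genes rod, Zw10 and Zwilch, the dynein adaptor gene Spindly, and the kinesins cmet and cana, with a median of 775. Of the kinase and passenger complex genes 4 of 4 were bound (median 827), namely aurB, borr, Incenp and polo, and pch2, whose mammalian counterpart takes the checkpoint complex apart, had 329. The targets and effectors of anaphase, fzy, CycB, CycB3, pim, Sse and thr, were bound at 6 of 6, with a median of 1277. The highest values were those of CycB3, a mitotic cyclin gene, borr with 2129, the separase gene Sse with 1672 and its partner thr with 1499. The signal value at fzy, the gene of Cdc20, was 961, close to that of BubR1. The exception was Mtor, annotated as Mgtor, a gene of the nuclear pore basket, whose nearest conservative summit lay 570 bp from its TSS. Within 100 bp of their summits the full E2F forms occurred in 0 of 18 windows, beside 9.38% of promoter entries. Within 200 bp they occurred in 1 of 18, aurB, beside 13.3%. The shorter cores occurred in 2 of 18 within 100 bp, Incenp and pch2, beside 18.1%, and in 5 of 18 within 200 bp, beside 26.7%. The CHR occurred in 11 of 18, beside 51.2%, a share from which nothing is read about these genes. The DRE occurred in 2 of 18, rod and Sse, beside 15.7%.

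**Figure D4:**
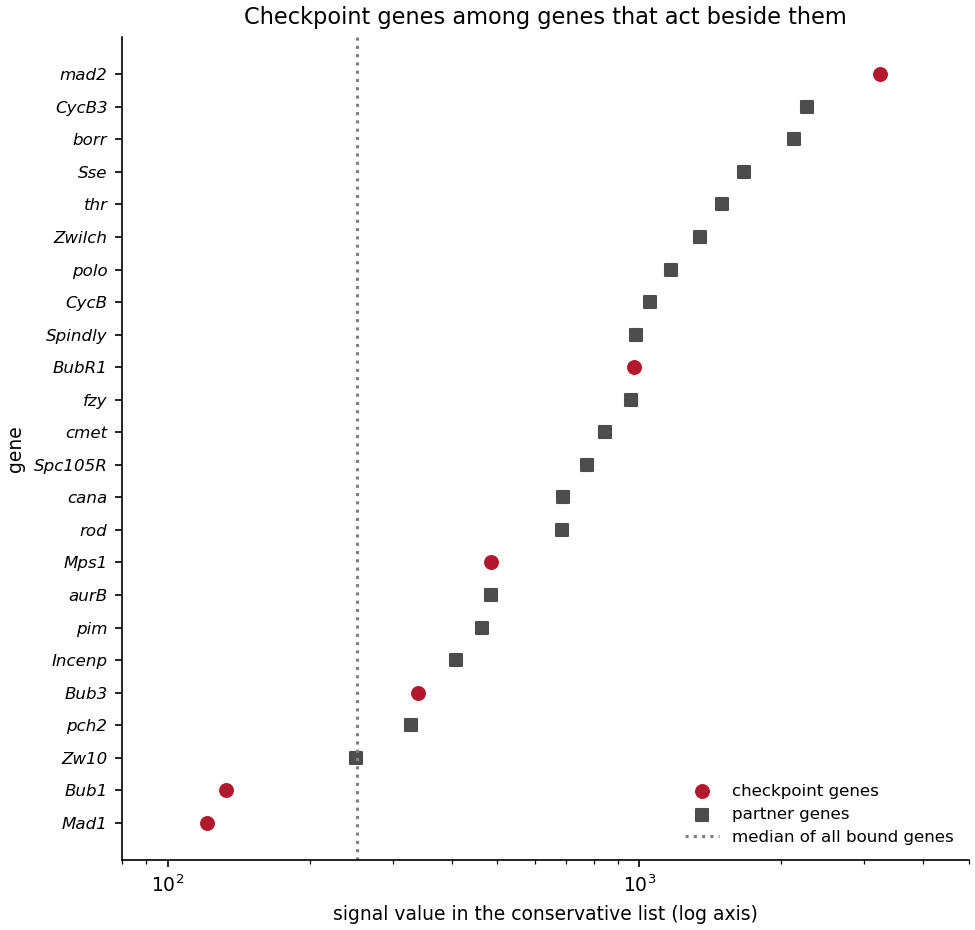
Signal value in the conservative list (log axis) of the 6 checkpoint genes (red circles) and the 18 bound partner genes (dark squares), ordered by value, with a dotted line at the median of all bound genes (252). By the strongest summit of each gene, mad2 stands above every partner gene, and Bub1 (133) and Mad1 (121) stand below every one of them. A second Zw10 summit nearer its TSS, with a value of 123, is not drawn.

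The genes nearest to each checkpoint gene were found by the distance between their pairs of percentiles over 2 replicates. The search ran among 4496 other genes bound in both, and any gene sharing the checkpoint gene's own summit was passed over. The nearest was jar for mad2 (distance 0.0314 percentile points), CG14182 for BubR1 (0.213), Ccdc114 for Bub3 (0.210), Wwox for Mps1 (0.355), CG7706 for Bub1 (0.415) and tsu for Mad1 (0.848). With 2 replicates this likeness describes level alone.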

How the data were processed

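Peak lists from 2 biological replicates of E2f2-eGFP embryos, grouped as 1 group per the labels, were used as deposited, so no groups were compared. Per the file records, the authors derived the lists from alignments to dm6 and a control file. No source used here names the aligner or the peak caller. The deposited signal value, the whole-number score (at least 830 in thresholded lists) and the −log10 of the global IDR are the authors'. Start sites came from the Ensembl release 115 annotation and bases from RefSeq Release 6, into whose chromosome lengths every peak fitted. Coordinates count from 1.

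Summits were assigned to TSSs with Python 3.11.15 and pandas 2.3.3, within 500 bp. The strongest summit stood for a gene, and peaks matched between lists when they overlapped by 1 bp. The assignment and motif search were checked on simulated peaks. Mtor was matched through RefSeq synonyms. Members and lists were chosen with earlier results of these data known, so no test was made. Named genes were every member, the 4 partner genes of highest value and every unbound one, genes sharing a member's summit, the nearest gene by percentile and the entries beside mad2. Further partner values were added after they were seen.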

Additional observations from a re-analysis of the deposited data

How the results depend on the processing

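With the 1000 strongest entries 2 of 6 checkpoint and 11 of 19 partner genes were bound, against 7.82% of all genes. With each peak at its nearest TSS alone 3 of 6 checkpoint genes were bound, against 31.6%. The remaining 7 alternatives gave 5 or 6 checkpoint genes and 18 or 19 partner genes, against 33.5% to 44.3% of all genes. Leaving out replicate 1 or replicate 2 gave 6 and 6 checkpoint genes, 18 and 18 partner genes and 0 and 0 E2F motifs of the forms searched. The shares of all genes bound were then 42.1% and 33.5%. The median percentile of the checkpoint genes' signal, 75.6, was 61.3 in replicate 1's list alone and 79.0 in replicate 2's. These lists held 5002 and 8250 entries, and a percentile depends on the length of its list. BubR1, at ranks 717 and 695, had percentiles of 85.7 and 91.6. An E2F core anywhere in the interval, an alternative chosen after seeing the data, gave 1 gene, beside 27.7% of promoter entries. The cause of these differences was not tested. No paired analysis was possible because both samples belong to 1 group. Read depth is unknown, so no interval on a signal value could be given.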

Other observations

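The checkpoint peaks differed in width as well as in signal. In the conservative list 43.7% of entries were exactly 510 bp wide, the most common width, and the Mad1 and Mps1 peaks had that width. The peaks of Bub1 and Bub3 were narrower, at 223 and 298 bp, and that of mad2 was wider, at 680 bp. In replicate 1, by contrast, the Bub1 and Bub3 peaks had that list's most common width of 420 bp and the Mps1 peak was 223 bp wide. The GC content of the 201 bp windows ran from 34.3% at Mps1 to 40.8% at mad2, and all 6 lay between the quartiles of the 4146 promoter entries, 32.8% and 42.3%.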
